A study of Rattus norvegicus with 36 samples.

Results

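*Per1*, *Per2*, *Per3*, *Nr1d1*, *Nr1d2* and *Ciart* are the genes of the rat circadian clock that encode the Period proteins, both Rev-erb receptors and the repressor CIART. They were found as every non-control probe whose transcript accession belongs to 1 of these symbols in RefSeq, which gave 8 probes for all 6 genes among 15154 genes with a named probe. The arrays were 1-colour Agilent arrays of rat transcripts, 1 for each of 36 male Sprague Dawley rats in 9 groups of 4. Thyroid tissue was taken 24 h after an intravenous injection of 131I, a radionuclide of iodine that the thyroid concentrates. The 4 groups injected first received 9, 88, 170 and 260 kBq, the next 4 received 340, 760, 1300 and 4700 kBq, and the control rats (0 kBq) were mock-treated. All rats were healthy adults, with their age in weeks not given in the sources used here. The groups were injected by day in rising order of activity and the controls came after the 4700 kBq group, so that dose and order cannot be told apart among the irradiated groups. The controls were lowest in dose and last in order. Clock times were not given in the sources used here. The rats were killed 24 h after injection, and the order of killing is not stated separately. The number of arrays, 4 to a group, is 1 of the limits on precision.

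In the cell clock, the activators BMAL1 and CLOCK (or NPAS2) switch on the Period, cryptochrome, Rev-erb and *Ciart* genes through E-box sequences, and the products act back on the activators. PERIOD and cryptochrome proteins bind the activators and hold them off their targets, CIART also represses them, and the Rev-erb receptors (NR1D1 and NR1D2) repress *Bmal1* itself through a Rev-erb/ROR element. The mRNA of these genes rises and falls over the day in most tissues, in a sequence of phases that differs from gene to gene, and that of *Bmal1* runs opposite to that of the Rev-erb genes.

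The promoter sequences that carry such elements are shown for the members in which a searched motif was found, together with that of *Bmal1*, the target of the Rev-erb receptors. They are the 250 bases before the transcript start in RefSeq (build GRCr8), written 5′ to 3′ on the strand of the gene, and capitals mark the motifs. *Ciart* (chr2:186112247-186112496, minus strand) held 3 E-boxes, at 93 to 88, 35 to 30 and 21 to 16 bases before the start. *Per2* (chr9:99496994-99497243, minus strand) held a D-box at 192 to 185 bases, the element bound by DBP and TEF, and an E-prime box at 62 to 57 bases. *Nr1d1* has 2 listed starts, of which the first (chr10:84231813-84232062, minus strand) held an E-prime box and the second (chr10:84229455-84229704, minus strand) an E-box. *Bmal1* (chr1:176766078-176766327, plus strand) held 1 Rev-erb/ROR element at 16 to 10 bases.
Ciart: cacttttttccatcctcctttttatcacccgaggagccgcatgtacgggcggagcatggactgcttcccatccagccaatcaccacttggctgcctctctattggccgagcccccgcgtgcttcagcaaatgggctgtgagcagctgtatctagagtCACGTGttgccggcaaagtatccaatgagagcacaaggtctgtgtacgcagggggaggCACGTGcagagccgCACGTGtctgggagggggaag
Per2: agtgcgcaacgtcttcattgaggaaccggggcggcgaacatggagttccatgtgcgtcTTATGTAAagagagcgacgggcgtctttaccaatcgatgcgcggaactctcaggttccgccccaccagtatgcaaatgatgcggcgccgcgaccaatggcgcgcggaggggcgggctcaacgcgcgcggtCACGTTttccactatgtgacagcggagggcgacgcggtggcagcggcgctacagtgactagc
Nr1d1 first start: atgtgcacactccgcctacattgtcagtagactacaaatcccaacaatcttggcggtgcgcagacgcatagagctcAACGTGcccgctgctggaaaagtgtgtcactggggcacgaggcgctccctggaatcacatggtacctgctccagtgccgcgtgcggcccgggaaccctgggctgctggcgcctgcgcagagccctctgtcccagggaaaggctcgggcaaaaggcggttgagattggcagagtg
Nr1d1 second start: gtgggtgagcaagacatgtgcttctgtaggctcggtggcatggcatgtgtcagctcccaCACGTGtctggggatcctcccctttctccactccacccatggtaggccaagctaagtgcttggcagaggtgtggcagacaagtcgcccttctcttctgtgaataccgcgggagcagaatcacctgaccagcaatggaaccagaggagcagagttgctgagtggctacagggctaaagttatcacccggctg
Bmal1: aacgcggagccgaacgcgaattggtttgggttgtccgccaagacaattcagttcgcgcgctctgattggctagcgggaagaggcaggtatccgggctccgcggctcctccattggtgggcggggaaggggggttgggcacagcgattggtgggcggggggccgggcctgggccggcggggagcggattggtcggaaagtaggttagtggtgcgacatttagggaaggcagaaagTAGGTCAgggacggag
Letters were searched on both strands as CACGTG (E-box), CACGTT (E-prime box), TTATGNAA (D-box), TGACGTCA (CRE) and TAGGTCA (Rev-erb/ROR element), and none of these matches overlapped. Among 33469 promoters of the same length, 5.59% held the E-box, 4.07% the E-prime box, 3.28% the D-box, 1.59% the CRE and 2.26% the Rev-erb/ROR element. *Per1*, *Per3* and *Nr1d2* held none of these letters in this window.

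A level here is the log2 processed signal of a probe minus the 75th percentile of its array, so that 0 stands for the brightness of the 75th percentile, and the levels of the 6 genes were compared between rats, not between probes. Brightness served only to pick the probe of a gene and to name the gene with the brightest probe of a list. The tissue differed between arrays before any comparison of groups. The mean level over 13 thyroid follicular genes (thyroglobulin *Tg* and other genes of hormone synthesis and thyrocyte identity) ranged from -5.25 to 2.42, and the arrays fell on both sides of a gap between -1.06 and 0.93. On 18 arrays the list mean was above 0, called rich in follicular markers below, and on 18 arrays it was below 0, called poor. The level of *Tg*, the gene with the brightest probe of the list, ranged from -4.51 to 7.48 and it was well above background on all 36 arrays. *Tg* alone did not separate the 2 sets, since its highest level on a poor array was 6.83 and its lowest on a rich array 6.78. The rich arrays numbered 1 in the 9 and 340 kBq groups, 2 in the 88, 170, 260, 760 and 1300 kBq groups and 3 in the 4700 kBq and control groups. This division was made after the values were seen. In the rich set the first place of the injection order was a single rat, 9 kBq rat 2. In the poor set the 4700 kBq and control places were 1 rat each. The array of 340 kBq rat 4 stood apart, with 88.5% of probes well above background against at most 77.0% on the others. The 340 kBq group holds the middle place in the injection order, which has no weight in a linear trend over the group means. Leaving that array out therefore cannot move the size of such a trend, and is no check on it. The trends of each gene over order and dose are given over all arrays and within both sets, where a group with a single array was assumed to vary like the others. In bulk tissue, fewer cells of a type and less RNA per cell cannot be told apart.

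*Nr1d1*, which encodes the repressor REV-ERB alpha, varied widely between rats of a group and was lower in the groups injected first. In the 9 kBq group, its level was -0.52, -5.85, -4.26 and -1.31 in rats 1 to 4. In the 88 kBq group, the level was -0.71, -2.78, -4.67 and -2.63. In the 170 kBq group, the level was -2.01, -1.67, -1.22 and -2.74. The lowest of these 12 rats, 9 kBq rat 2, was the 1 rat of its group with an array rich in follicular markers. In the 260 kBq group, *Nr1d1* was at -3.82, -3.84, -0.85 and -0.46, with the rich arrays forming the low pair. In the 340 kBq group the values lay close together at -0.82, 0.079, -0.92 and -0.70. The 760 kBq rats gave 0.10, -0.44, -1.63 and -0.58. No rat of the 340 or 760 kBq groups lay as low as the middle of the 9 kBq values. In the 1300 kBq group *Nr1d1* was at 1.503, 0.0035, -0.67 and -1.35. In the 4700 kBq group it was at -0.020, -1.35, 1.31 and -1.06. The controls, injected last, were at -0.80, -1.17, 0.16 and -1.39, close to the range of the groups injected just before them and overlapping the upper rats of the first groups.

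The order of the *Nr1d1* group means, from 9 kBq (-2.99 ± 2.498, SD, n = 4) through 88, 260 and 170 kBq, the controls, 760, 340 and 4700 kBq to 1300 kBq (-0.13 ± 1.22), held few gaps beyond the spread between rats. Of the 8 gaps between neighbours in that order, 1 exceeded the larger SD of the pair, the gap of 1.11 between 170 kBq (-1.91 ± 0.64) and the controls (-0.80 ± 0.69). All 4 groups injected first lay below it and the 5 injected last above it. The change of *Nr1d1* fitted from the first to the last place in the injection order was 2.82 on the log2 scale (SE 0.68, 7.07-fold), with an adjusted p of 0.158 in limma, so it was not regulated. Regulated stands for an adjusted p (Benjamini-Hochberg over all 30367 probes) under 0.01 with a fold change of at least 1.5. On the 18 arrays rich in follicular markers the change was 4.24 (SE 0.48, adjusted p 0.00600), which was regulated. On the 18 poor arrays it was 3.19 (SE 0.92, adjusted p 0.0973). The first place of the fit on the rich arrays was 9 kBq rat 2 alone, at -5.85. The 3 poor arrays of its group had a mean of -2.03. How far the change on the rich arrays rests on that rat was not tested. Within each group the rich arrays averaged lower than the poor ones in 8 of 9 groups, by 1.67 on average.

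*Nr1d2*, which encodes the paralog REV-ERB beta, followed *Nr1d1* from rat to rat. Its level in the 9 kBq group was -3.37, -5.52, -5.47 and -4.25. In the 88 kBq group it was -3.63, -4.91, -5.35 and -4.87. These 8 rats included 2 as high as the groups injected later, and the other 6 were lower than every rat injected from the 340 kBq group on. The 170 kBq rats were at -3.92, -4.02, -3.62 and -4.85, and the 260 kBq rats at -5.19, -5.04, -3.51 and -3.23. In the 340 kBq group *Nr1d2* was at -3.62, -2.84, -3.70 and -3.72, and in the 760 kBq group at -2.95, -3.75, -3.58 and -3.42. In the 1300 kBq group it was at -2.26, -2.77, -3.58 and -4.08, in the 4700 kBq group at -3.25, -3.59, -2.32 and -3.56, and in the controls at -3.38, -3.50, -2.80 and -3.85. The last 5 groups overlapped one another. The largest gap between neighbouring group means, 0.63, lay between 170 kBq (-4.10 ± 0.53) and 340 kBq (-3.47 ± 0.42), and it was the 1 gap of 8 that exceeded the larger SD. The change over the injection order was 1.64 (SE 0.36, 3.11-fold, adjusted p 0.0743). On the arrays rich in follicular markers it was 1.95 (SE 0.20, adjusted p 0.00279), which was regulated, and on the poor arrays 2.08 (SE 0.57, adjusted p 0.0836). For *Nr1d2* too, the first place on the rich arrays was 9 kBq rat 2 alone (-5.52), against a mean of -4.37 on the 3 poor arrays of its group. Over the 36 arrays both Rev-erb genes correlated with r = 0.959, the highest value for either gene. These are points that share groups of 4 rats and a high or low follicular content.

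**Figure D1:**
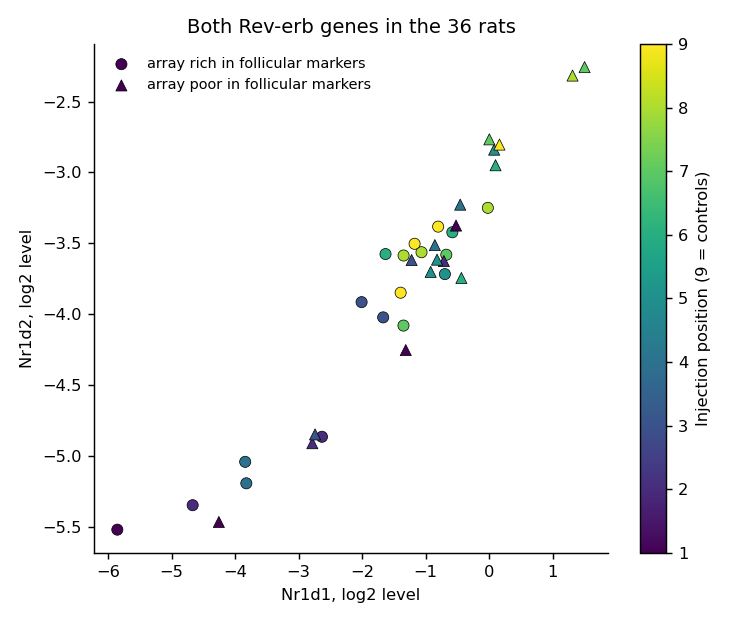
Level of *Nr1d2* (vertical axis, log2) against that of *Nr1d1* (horizontal axis, log2) in the 36 rats, coloured by place in the injection order, with circles for arrays rich and triangles for arrays poor in follicular markers. The lower left corner holds rats of the first 4 places, and rats of later places lie at the upper right.

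*Ciart*, whose product represses the BMAL1 and CLOCK pair, was near background in most groups and higher in the groups handled last. Its probe was well above background on 12 of 36 arrays, on 0 of 4 in the 9, 170 and 260 kBq groups, on 1 of 4 in the 88, 340 and 1300 kBq groups, on 2 of 4 at 760 kBq, on 4 of 4 at 4700 kBq and on 3 of 4 controls. In the 9 kBq group the measured level was -8.41, -9.32, -7.52 and -8.45. In the 170 kBq group it was -6.76, -8.68, -8.34 and -8.44, and in the 260 kBq group -8.91, -8.51, -6.85 and -8.25. None of these 12 values was well above background. In the 88 kBq group *Ciart* was at -8.69, -5.53, -9.04 and -8.65, with rat 2 far above the other rats of its group. In the 340 kBq group it was at -7.59, -7.49, -8.32 and -6.48, in the 760 kBq group at -5.58, -5.84, -6.72 and -6.90, and in the 1300 kBq group at -7.17, -3.99, -7.19 and -9.07. In the 4700 kBq group it was at -5.79, -4.34, -3.28 and -4.27, above every rat of the 9, 170 and 260 kBq groups. The controls were at -5.53, -4.76, -3.32 and -7.75, and the last of these fell among the rats injected first. Where a group had no array well above background, the fold is a lower bound, taken against the lowest signal that was well above background on each array. By that bound *Ciart* was at least 5.17-fold higher at 4700 kBq than at 9 kBq, at least 4.59-fold higher than at 170 kBq and at least 4.81-fold higher than at 260 kBq. These pairs of irradiated groups were not tested against each other. The control mean was 2.74-fold above the same limit at 9 kBq, 2.43-fold at 170 kBq and 2.55-fold at 260 kBq. These control values are not lower bounds. Control rat 4 (-7.75) was not well above background and entered at its measured value.

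The change of *Ciart* over the injection order, fitted on the measured values, was 3.64 (SE 0.64, adjusted p 0.0108), just outside the limit of 0.01. The adjusted p was below that limit with other scalings of the arrays (0.00529 with median centring, 0.00668 with quantile normalization) and above it with the slide as a block (3.85, adjusted p 0.0639). It was 3.52 (SE 0.74, adjusted p 0.176) on the arrays rich in follicular markers and 5.09 (SE 0.89, adjusted p 0.0318) on the poor ones. Because the low values are bounds, the size depends on their treatment. With dim spots set to the lowest signal well above background, the change was 1.96 (adjusted p 0.0675), and with normexp correction of the median spot signals and an offset of 50 it was 1.26 (adjusted p 0.114).

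*Per3*, the third Period gene, was measured by 3 probes, all well above background on all 36 arrays. The probe with the highest mean (A_64_P119407) was at -2.25, -3.79, -2.81 and -2.75 in the 9 kBq group and at -2.79, -2.95, -3.61 and -3.27 in the 88 kBq group. It was at -2.74, -2.80, -2.07 and -2.68 at 170 kBq and at -3.22, -3.51, -2.39 and -2.49 at 260 kBq. The 340 kBq group gave -2.47, -1.98, -2.18 and -2.30, and the 760 kBq group -2.57, -2.65, -2.90 and -2.54. These 2 middle groups were narrow, with 760 kBq entirely below the controls, which were at -1.90, -2.43, -1.47 and -2.36. In the 1300 kBq group the level was -0.82, -1.40, -2.92 and -2.54 and in the 4700 kBq group -2.10, -2.67, -0.62 and -2.15. The high rats of both groups had arrays poor in follicular markers. The change over the injection order was 1.17 (SE 0.29, adjusted p 0.187) on all arrays, 1.38 (SE 0.22, adjusted p 0.0528) on the rich arrays and 1.82 (SE 0.26, adjusted p 0.0115) on the poor arrays.

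A second *Per3* probe (A_64_P127337) was regulated over the injection order with rats as units, but not in a fit on the group means. Its level was -4.68, -5.81, -4.55 and -4.54 at 9 kBq, and between -5.17 and -5.11 in all 4 rats at 88 kBq. It was at -5.26, -4.83, -5.42 and -4.58 at 170 kBq and at -5.29, -5.07, -4.17 and -4.40 at 260 kBq. Every one of these 16 rats lay below all 4 controls, which were at -3.78, -3.95, -3.33 and -3.93. The 340 kBq rats were at -4.35, -4.36, -5.31 and -3.87, the 760 kBq rats between -4.29 and -3.99, and the 1300 kBq rats at -3.88, -3.96, -4.36 and -4.89. At 4700 kBq the level was -3.61, -3.95, -3.46 and -3.65, overlapping the controls in full. The change from the first to the last place was 1.48 (SE 0.22, 2.78-fold, adjusted p 0.000947), 1.84 (SE 0.19, adjusted p 0.00279) on the rich and 1.65 (SE 0.30, adjusted p 0.0371) on the poor arrays. The third probe (A_64_P119405) changed by 1.17 (SE 0.24, adjusted p 0.0397), by 1.59 (adjusted p 0.0803) on the rich and 1.21 (adjusted p 0.0795) on the poor arrays. For the second probe, the first place on the rich arrays was 9 kBq rat 2 alone (-5.81), against a mean of -4.59 on the 3 poor arrays of its group. The 3 probes correlated over the 36 arrays with r between 0.668 and 0.861.

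*Per2*, a Period gene that is itself a target of the clock and of other signals, was highest in the groups handled last. Its level was -3.62, -2.91, -2.63 and -4.18 at 9 kBq, -4.48, -3.34, -1.93 and -2.17 at 88 kBq, and -2.89, -2.40, -3.54 and -3.41 at 170 kBq. At 260 kBq it was -2.26, -2.34, -3.72 and -4.04, at 340 kBq -4.43, -3.57, -3.44 and -2.98, and at 760 kBq -3.00, -4.13, -2.33 and -2.45. All rats of the 9, 170 and 340 kBq groups lay below all controls. The 1300 kBq rats were at -2.70, -1.85, -2.81 and -2.60, the 4700 kBq rats at -2.01, -1.39, -1.44 and -1.32, and the controls at -2.36, -1.89, -1.54 and -2.37. The 4700 kBq mean of -1.54 ± 0.32 (SD, n = 4) was the highest and the controls (-2.04 ± 0.40) were next, and both gaps at that end of the order of means, 0.50 and 0.45, exceeded the larger SD. The change over the injection order was 1.43 (SE 0.36, 2.70-fold, adjusted p 0.184). The size varied with the set of arrays, with 0.54 (SE 0.22, adjusted p 0.363) on the rich arrays and 2.38 (SE 0.50, adjusted p 0.0706) on the poor arrays. The difference between the sets was not tested. In each of the first 6 groups the mean of the rich arrays was the higher, as at 260 kBq with -2.30 against -3.88, whereas in the controls it was the lower, -2.21 against -1.54.

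*Per1*, the Period gene that also answers to light and hormone signals, had group means within a narrow range. Its group means lay between -5.19 ± 0.46 at 760 kBq and -4.40 ± 0.79 at 1300 kBq (SD, n = 4), with -4.76 ± 0.51 at 9 kBq, -4.72 ± 0.93 at 4700 kBq and -4.97 ± 0.67 in the controls. The single rats ranged from -5.20 to -4.16 at 9 kBq and from -5.77 to -4.33 among the controls, so that the groups overlapped. None of the 8 gaps between neighbouring means exceeded the larger SD, and the probe was well above background on 35 of 36 arrays. The change over the injection order was 0.18 (SE 0.31, adjusted p 0.921). It was -0.22 (SE 0.32, adjusted p 0.801) on the arrays rich in follicular markers and 1.09 (SE 0.41, adjusted p 0.207) on the poor ones, so that its sign was not the same in both sets.

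**Figure D2:**
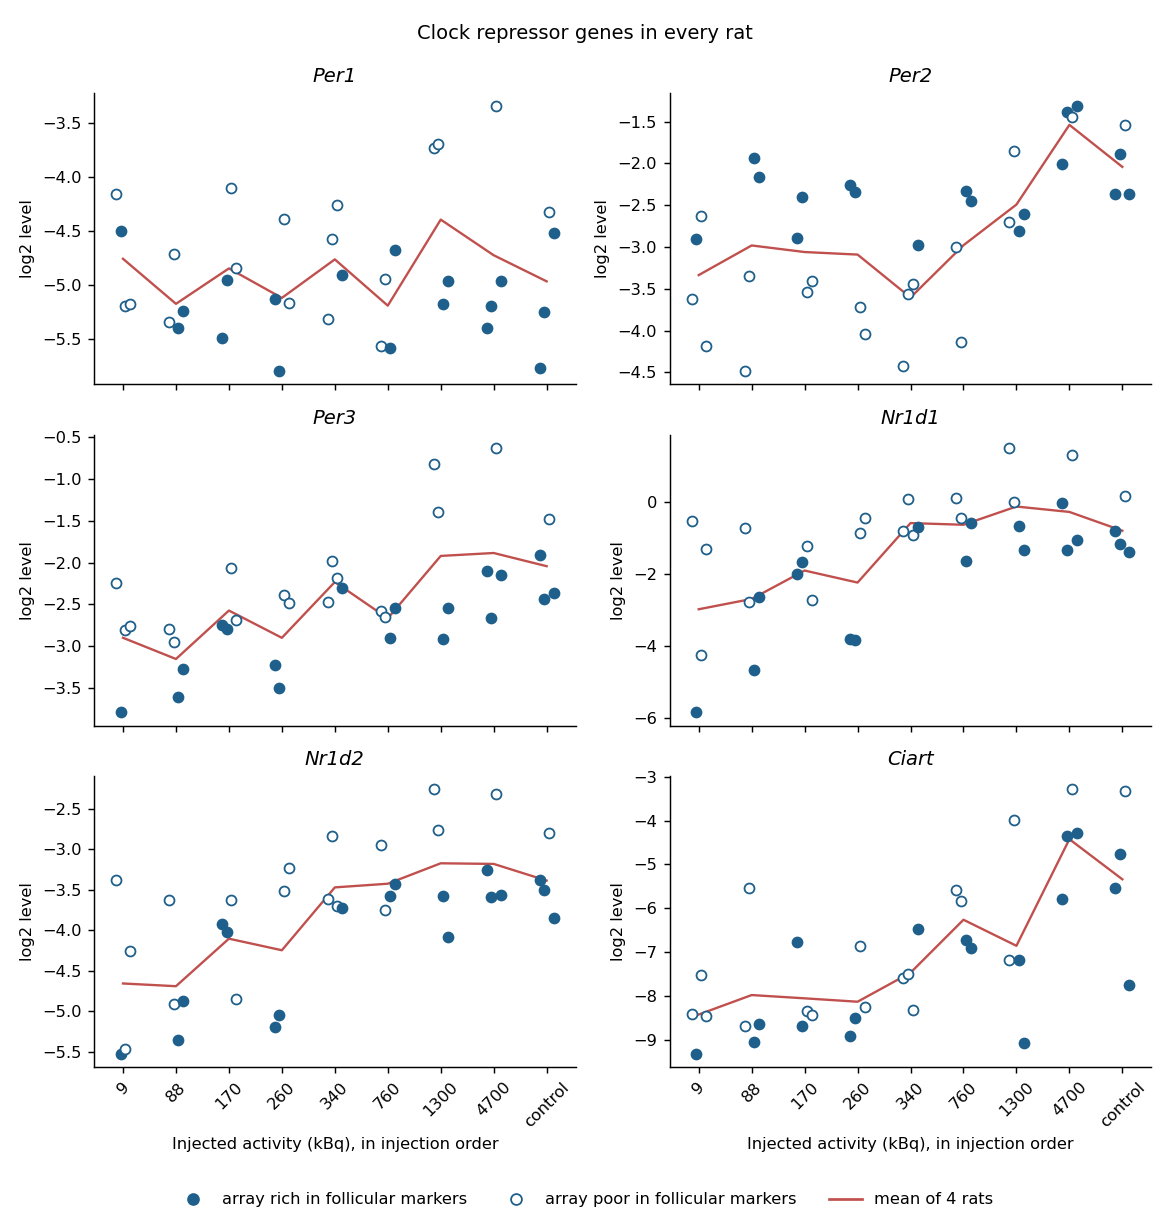
Level (vertical axis, log2 relative to the 75th percentile of the array) of each gene by its probe with the highest mean in every rat, with groups placed in injection order (horizontal axis, injected activity in kBq, controls last). Filled points are arrays rich and open points arrays poor in follicular markers, and the line joins the means of 4 rats. *Nr1d1*, *Nr1d2* and *Ciart* climb from left to right and *Per1* shows no such climb.

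Over all 36 arrays the 6 members had a median change of 1.54 from the first to the last place in the injection order, against a median of -0.018 over all probes. All 6 changes were above 0, 5 of 6 had an unadjusted p under 0.05 (1.85% of all probes did so in this direction), and 0 of 6 were regulated by the probe with the highest mean. Of all 30367 probes, 8 were regulated, 4 higher (0.0132% of probes) and 4 lower (0.0132%), against 0 in a fit on the group means. The 4 higher were the *Per3* probe above and the 3 probes of *Dbp*, and the 4 lower were both probes of *Bmal1* and 1 each of *Cry1* and *Rtp3*. On the rich arrays, where 0.0263% of probes were regulated higher and 0.0263% lower, the regulated probes included *Nr1d1*, *Nr1d2* and the same *Per3* probe. On the poor arrays 0.161% were regulated higher and 0.00659% lower, and none of the 8 member probes was among them. Among the 8 irradiated groups alone, without the controls, the changes were 1.14 for *Per3*, 1.23 for *Per2*, 1.73 for *Nr1d2*, 3.11 for *Nr1d1*, 3.31 for *Ciart* and 0.29 for *Per1*. The first 5 of these had an unadjusted p under 0.05, against 3.78% of all probes in this direction. There the *Per3* probe A_64_P127337 (1.32, SE 0.23, adjusted p 0.00776) was the 1 member probe among 0.0296% regulated higher and 0.00659% regulated lower, and *Ciart* had an adjusted p of 0.0418. Over the alternatives that change of *Ciart* ranged from 1.19 to 4.11 and its adjusted p from 0.00291 with the follicular list as a covariate to 0.229 with normexp, and with dim spots at the floor it was 1.80 (adjusted p 0.196). On the rich arrays, where 0.0594% of probes were regulated higher and 0.0132% lower over the irradiated groups, *Nr1d1* (4.49, adjusted p 0.00479), *Nr1d2* (1.97, adjusted p 0.00353) and the *Per3* probe A_64_P127337 (1.75, adjusted p 0.00479) were regulated. On the poor arrays, with 0.0659% regulated higher and 0.00329% lower, no member probe was, and the smallest adjusted p was 0.0158 for the main *Per3* probe (1.85).

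**Figure D3:**
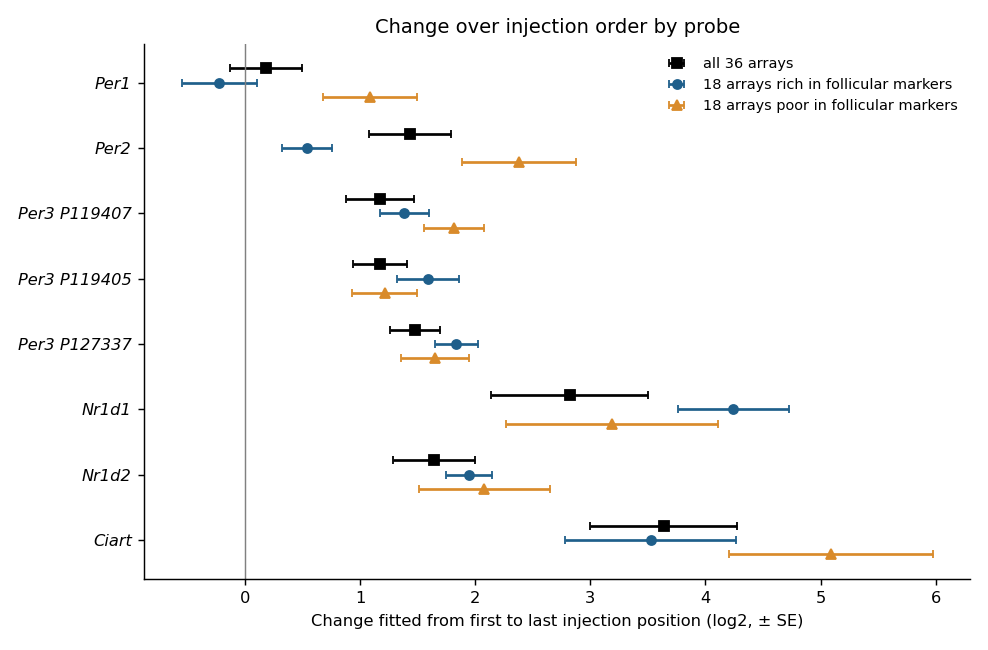
Change fitted from the first to the last place in the injection order (horizontal axis, log2, bars ± SE) for each of the 8 probes, over all 36 arrays (squares), the 18 arrays rich (circles) and the 18 poor (triangles) in follicular markers. All 3 fits lie above 0 for each probe other than that of *Per1*, which is at -0.22 on the rich arrays.

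Placing the same groups by dose, with the controls lowest, gave smaller changes for each member other than *Per1*. From the lowest to the highest place the fitted change was 0.53 (SE 0.36) for *Per2*, 0.65 (SE 0.29) for *Per3*, 1.13 (SE 0.36) for *Nr1d2*, 1.65 (SE 0.64) for *Ciart*, 2.15 (SE 0.68) for *Nr1d1* and 0.28 (SE 0.31) for *Per1*. The smallest adjusted p was 0.724 in limma and 0 of 6 were regulated, while 4 of 6 had an unadjusted p under 0.05, against 4.25% of all probes in this direction. Among all probes 0.0198% were regulated higher over dose and 0.0% lower, and 2 of the 6 regulated probes belonged to *Mdm2*, a gene induced by p53. The difference between both placements, which rests on the place of the 4 controls, was not tested. No member probe was regulated over dose on the rich arrays (0.066% of probes regulated higher, 0.0% lower) or on the poor ones (0.00329% higher, 0.0% lower). The change of *Nr1d1* over dose was 2.94 (adjusted p 0.0143) on the rich and 2.34 (adjusted p 0.624) on the poor arrays, and that of *Nr1d2* was 1.20 (adjusted p 0.0143) and 1.36 (adjusted p 0.624). For *Ciart* it was 1.83 (adjusted p 0.167) and 1.49 (adjusted p 0.644), and for *Per3* 0.64 (adjusted p 0.101) and 1.14 (adjusted p 0.386). For *Per2* it was 0.28 (adjusted p 0.506) and 0.58 (adjusted p 0.726), and for *Per1* -0.14 (adjusted p 0.850) and 0.88 (adjusted p 0.624).

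**Figure D4:**
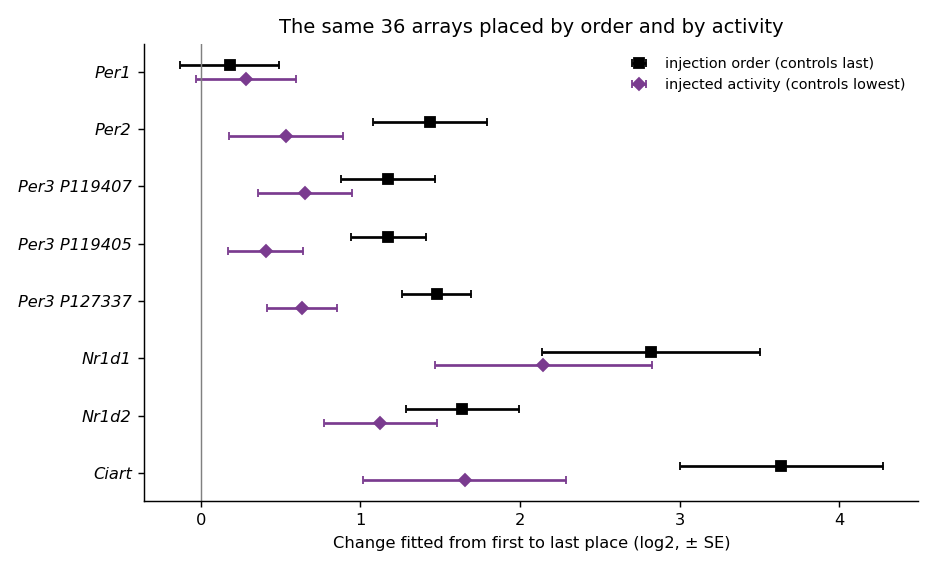
Fitted change (horizontal axis, log2, bars ± SE) of the 8 probes when the 9 groups are placed by injection order with controls last (squares) or by injected activity with controls lowest (diamonds), over all 36 arrays. The change by order is the larger for each probe other than that of *Per1*, with 3.64 against 1.65 for *Ciart*.

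The study's own comparison sets each irradiated group against the controls, and the 8 comparisons share the same 4 control rats. In the fit used here no member was regulated in any of them. In each of the 8 comparisons the share of all probes regulated in this fit was 0.0%. The paper, with other software, reports regulated transcripts in every irradiated group at the same fold and adjusted p limits. At an unadjusted p under 0.05 in limma, 5 of 6 members were lower at 9 kBq, against 0.454% of all probes. The count was 3 at 88 kBq (0.372% of probes), 2 at 170 kBq (0.201%), 3 at 260 kBq (0.336%) and 2 at 340 kBq (0.438%). It was 0 of 6 at 760 kBq (0.148%), 1300 kBq (0.339%) and 4700 kBq (0.372%). At 9 kBq *Nr1d1* was 4.54-fold lower than in the controls (log2 -2.18, SE 0.93), *Per2* was 2.45-fold lower (-1.30, SE 0.49) and *Nr1d2* 2.41-fold lower (-1.27, SE 0.49), and each had an adjusted p of 0.9995 in limma. The *Nr1d1* value rested on single rats, with -1.23 without 9 kBq rat 2 and -3.01 without 9 kBq rat 1. At 88 kBq *Nr1d2* was 2.47-fold lower (-1.30, SE 0.49) and *Per3* 2.16-fold lower (-1.11, SE 0.40). At 4700 kBq all 6 members were above the controls by 0.16 to 0.92 on the log2 scale, none with an unadjusted p under 0.05, and the value of 0.92 was that of *Ciart* (SE 0.87, adjusted p 0.9999). Without control rat 4 that value was 0.113, and without control rat 3 it was 1.59. The *Per3* probe A_64_P119405 was at -0.12 (SE 0.32) there. The whole table shifted as well, with a median change over all probes of 0.31 at 340 kBq and 0.22 at 1300 kBq, so that the *Nr1d1* value at 340 kBq (0.21, SE 0.93) was below that median and its sign turned to -0.009 when each array was centred on its median.

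All 4 rats below all 4 controls were seen for *Per2* at 9, 170 and 340 kBq and for *Per3* at 88 and 760 kBq, that is, for 1 of 6 members in each of these groups. The share of all probes with that pattern was 0.247% at 9 kBq, 0.194% at 88 kBq, 0.244% at 170 kBq, 0.306% at 340 kBq and 0.247% at 760 kBq. It was seen for 0 of 6 members at 260, 1300 and 4700 kBq, where 0.244%, 0.188% and 0.553% of probes had it. In 48 two-sided exact permutation tests of 4 against 4 rats (6 genes, 8 groups), these 5 gave p = 0.0286, the smallest p that 4 against 4 allows. The second *Per3* probe (A_64_P127337) lay entirely below the controls at 9, 88, 170, 260 and 760 kBq.

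The other clock genes numbered 14 with a probe of 21 listed. Over the injection order 1 was regulated higher and 2 lower, with a median change of -0.18. *Dbp*, the D-box activator and a direct E-box target, rose by 3.41 (SE 0.36, adjusted p 1.17e-06), and its relative *Tef* had 1.52 (SE 0.36, adjusted p 0.124). The activator *Bmal1* fell by 2.32 (SE 0.23, adjusted p 4.86e-07), and *Cry1*, a cryptochrome, fell by 1.83 (SE 0.28, adjusted p 0.00179). The activators *Clock* (-1.01, SE 0.26, adjusted p 0.226) and *Npas2* (-1.05, SE 0.44, adjusted p 0.597) and the D-box repressor *Nfil3* (-1.79, SE 0.51, adjusted p 0.277) were not regulated. A second probe of *Npas2* was at -0.013 (SE 0.26) and a second probe of *Clock* at -0.96 (SE 0.29). *Bhlhe40*, a further repressor, was at 1.05 (SE 0.46, adjusted p 0.610). *Cry2* was at -0.17 (SE 0.21) and the 5 kinases, ligases and partners had a median of -0.087. Among those not matched to a probe here were *Hlf*, *Bhlhe41*, *Fbxl21* and *Fbxw11*.

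**Figure D5:**
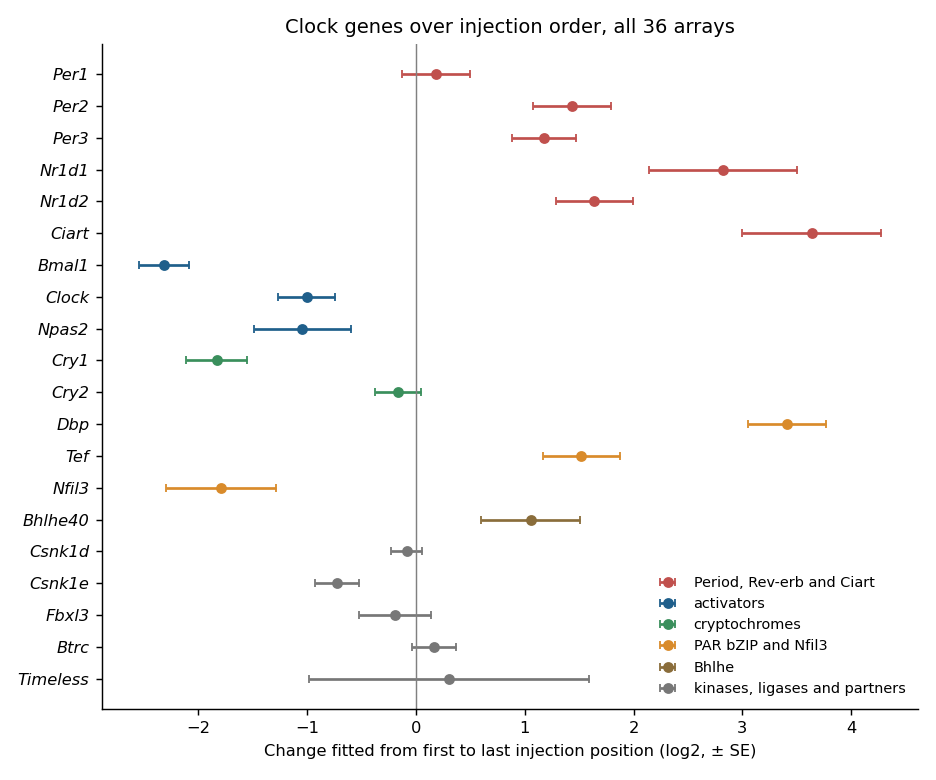
Change fitted from the first to the last place in the injection order (horizontal axis, log2, bars ± SE) over all 36 arrays for the 6 members (red) and the 14 other clock genes, coloured by their role. The members other than *Per1* lie to the right with *Dbp* and *Tef*, and *Bmal1*, *Cry1* and *Nfil3* to the left.

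The genes whose levels were most like those of each member were sought over the 36 arrays among named probes well above background on all of them. *Per3* was most like *Tef* (r = 0.920), *Klf15* (0.915) and *Neu3* (0.880), and *Nr1d1* was most like *Nr1d2* (0.959) and *Tef* (0.907). *Nr1d2* was also like *Tef* (0.918). *Ciart* was most like *Dbp* (0.779) and least like *Bmal1* (-0.711), with most of its own values near background. *Per2* was most like *Fam76a* (0.882) and *Xkr8* (0.783) and least like *Bmal1* (-0.780). *Per1* was most like *Rdh8* (0.904) and *Fgd3* (0.901), followed by *Dmrtc2* (0.899) and the olfactory receptor genes *Or4f61b* (0.897) and *Or8w1b* (0.893). What the likeness of *Per1* to these genes rests on was not tested. Between members the closest pairs after the Rev-erb genes were *Per3* with *Nr1d2* (0.844) and *Per3* with *Nr1d1* (0.832), followed by *Per1* with *Per3* (0.658), whereas *Per2* with *Nr1d1* gave -0.058. These correlations describe points that share groups, slides and tissue content.

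Values that moved beside the members were as follows. The follicular list was higher over the injection order for 13 of 13 genes, with a median change of 2.28, none regulated (smallest adjusted p 0.687). The mean levels of the list in its 9 groups ran from -3.10 ± 3.002 at 9 kBq and -2.73 ± 2.90 at 340 kBq to 0.43 ± 2.82 in the controls and 0.57 ± 2.64 at 4700 kBq (SD, n = 4). With the list mean of each array as a covariate, *Nr1d1* changed by 3.48 (adjusted p 0.00141), *Nr1d2* by 1.95 (0.00119), *Per3* by 1.501 (0.000209) and *Ciart* by 4.10 (0.000422), all regulated, *Per2* by 1.16 (0.125) and *Per1* by 0.43 (0.444). Among all probes, 30 were regulated over the order in that fit, 13 of them higher. Without the covariate 8 were regulated, 4 of them higher. The median change over the order was 2.94 for 3 parathyroid genes (brightest probe *Pth*), 2.54 for 4 C cell genes (*Calca*), -3.16 for 5 squamous epithelium genes (*Krt14*), 1.19 for 5 adipose genes (*Adipoq*), -1.35 for 5 cartilage genes (*Col2a1*) and -0.64 for 6 lymphoid genes (*Cd3g*). It was 0.21 for 8 fast muscle genes (*Tnni2*), 0.033 for 6 slow muscle genes (*Tnnt1*), -0.29 for 3 airway genes (*Scgb3a1*) and 0.33 for 3 erythroid genes (*Hbb*). None of these genes was regulated over the order. The erythroid gene *Slc4a1*, the anion exchanger of red cells, changed by 1.999 over the order (SE 0.50, adjusted p 0.183) and was regulated over the irradiated groups (3.17, adjusted p 0.00454) and over dose (3.07, adjusted p 0.00583). The list means differed widely between arrays, as from -5.86 to 6.06 for squamous epithelium and from -7.78 to 3.95 for parathyroid. The part of these other tissues in the changes of the clock genes was not tested. Of 7 genes that glucocorticoids induce, 4 were higher over the order and 0 regulated, with a median of 0.025 and *Klf9* (1.13, SE 0.22, adjusted p 0.0397) the nearest. Of 5 immediate early genes, 2 were higher and 0 regulated, with a median of -0.057.

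Slides and scan days held arrays of several groups. Within scan day 1 (16 arrays, 8 groups) the change over the order was 4.14 for *Nr1d1*, 2.13 for *Nr1d2*, 3.64 for *Ciart*, 1.44 for *Per3*, 1.10 for *Per2* and 0.52 for *Per1*. Within scan day 2 (20 arrays, 9 groups) it was 1.93, 1.31, 3.90, 0.90, 1.48 and -0.29 in the same order of genes. All 4 rats of the 88 kBq group were scanned on day 2. Across the 5 slides (6 to 8 arrays each), *Ciart* changed by 2.21 to 4.83 and the *Per3* probe A_64_P127337 by 0.92 to 2.08. *Nr1d1* changed by -0.056 to 5.23, *Nr1d2* by -0.25 to 2.56, *Per2* by -0.55 to 2.33 and the main *Per3* probe by -0.23 to 2.002. The values below 0 were on slide 4, which held 6 arrays of 4 groups (9, 88, 260 and 760 kBq). It held no array of a later place, so its change to the last place was extrapolated. *Per1* was between -0.57 and 0.46. No member had an adjusted p under 0.05 within a single slide or scan day.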

How the data were processed

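RNA from each thyroid was extracted with a lipid tissue kit and hybridised, 1 rat per array, to Agilent SurePrint G3 rat arrays (Cy3). The deposited processed signal is an intensity on a linear scale, which per the file headers Agilent Feature Extraction 10.7.3.1 background-subtracted and detrended within each array, with no scaling between arrays. The authors' deposited value table holds intensity values whose quantiles are equal on all arrays, and Partek is named in the submitters' processing notes without a method.

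Spots of a probe were averaged after control spots and outlier spots (331 to 1365 per array) had been left out, and no spot was saturated. Values are log2 intensities minus the 75th percentile of each array, which ranged from 1564 to 4288, and 60.1 to 88.5% of probes were well above background. Groups came from the labels. limma 3.58.1 (R 4.3.3) was fitted over 30367 probes with 1 mean per group. Contrasts gave each group against controls, a linear trend over the 9 places in the injection order, over dose ranks, and over the 8 irradiated groups, as the change from the first to the last place. P-values were adjusted by the Benjamini-Hochberg method over all probes, and scripts were tested on simulated data. Probes were named through RefSeq accessions, and each gene is given by its probe with the highest mean. Genes named beside the members are the other listed clock genes, the listed marker genes, those most like each member, and, chosen after their values were seen, *Mdm2* and *Rtp3* from the regulated probes. The members and lists were chosen with earlier results of these data known. Alternatives were other scalings, background corrections, filters, blocks, array weights, tissue covariates, and leaving out each rat. Setting dim spots to the floor, and fitting the arrays rich or poor in follicular markers alone, were added after seeing the data. Same-numbered rats of different groups are separate animals.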

Additional observations from a re-analysis of the deposited data

Results flagged for a closer look

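Dixon's test was applied to the 4 rats of each group for each of the 6 genes, 54 sets of values in all, and 3 stood out. Chance flags about 1 in 20 such sets. *Ciart* in the 88 kBq group was at -5.53 in rat 2, far above the other 3 rats at -9.04 to -8.65. *Per3* in the 170 kBq group was at -2.07 in rat 3, above the others at -2.80 to -2.68. *Nr1d2* in the 340 kBq group was at -2.84 in rat 2, above the others at -3.72 to -3.62. All 3 rats had arrays poor in follicular markers, and the part of the tissue in these values was not tested.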

How the results depend on the processing

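Over the injection order the changes of *Per2*, *Per3*, *Nr1d1*, *Nr1d2* and *Ciart* were above 0 under each alternative fit and without any single rat. This did not hold within slide 4, where *Ciart* alone of these was above 0 by its main probe. Slide 4 held no array of the 1300 kBq, 4700 kBq or control groups. The counts of regulated probes and the adjusted p-values were less stable, and the causes were not tested. The estimation of the array weights stopped before it converged, so the values with array weights are those of an unfinished estimate. The change of *Ciart* over the order (3.64) became regulated with quantile normalization (3.54), median centring (3.77), the authors' value table (3.50), dim probes left out (3.64), array weights (3.24) and the follicular list as covariate (4.10). The change of *Nr1d1* over the order (2.82) became regulated with the follicular list as covariate (3.48) and the rich arrays alone (4.24). The change of *Nr1d2* over the order (1.64) became regulated with array weights (1.38), the follicular list as covariate (1.95) and the rich arrays alone (1.95). The change of *Per3* over the order (1.17) became regulated with the follicular list as covariate (1.501) and probe A_64_P127337 (1.48). The sign of *Nr1d1* turned with median centring (-0.009 for 340 kBq), with the slide as a block (-0.30 for 340 kBq and -0.46 for 760 kBq), with the scan day as a block (-0.25 for 340 kBq and -0.30 for 760 kBq), with the follicular list as covariate (-0.69 for 340 kBq and -0.036 for 760 kBq) and with the poor arrays alone (-0.72 for 340 kBq and -0.33 for 760 kBq). The sign of *Nr1d2* turned with array weights (-0.067 for 1300 kBq, 0.028 for 340 kBq and 0.059 for 760 kBq), with the follicular list as covariate (-0.035 for 1300 kBq) and with the rich arrays alone (-0.25 for 1300 kBq and 0.079 for 760 kBq). The sign of *Per1* turned with quantile normalization (-0.032 for 170 kBq and -0.29 for 340 kBq), with the authors' value table (-0.034 for 170 kBq and -0.30 for 340 kBq), with the follicular list as covariate (-0.045 for 170 kBq, -0.14 for 340 kBq and -0.18 for 9 kBq), with the rich arrays alone (-0.041 for 170 kBq, -0.004 for 4700 kBq, 0.052 for 760 kBq, -0.14 for dose, -0.23 for the irradiated groups and -0.22 for the order), with the poor arrays alone (-0.15 for 170 kBq, -0.39 for 340 kBq and -0.52 for 9 kBq), with normexp of the median spot signals and an offset of 50 (0.009 for 260 kBq), with array weights (0.25 for 260 kBq, 0.049 for 760 kBq and 0.028 for 88 kBq) and with median centring (-0.018 for 340 kBq). The sign of *Per2* turned with the rich arrays alone (0.16 for 88 kBq). The sign of *Per3* turned with array weights (-0.33 for 1300 kBq and -0.048 for 4700 kBq), with the follicular list as covariate (-0.14 for 1300 kBq), with the rich arrays alone (-0.50 for 1300 kBq and -0.073 for 4700 kBq), with probe A_64_P119405 (-0.42 for 1300 kBq and -0.12 for 4700 kBq) and with probe A_64_P127337 (-0.52 for 1300 kBq). With array weights, the count of regulated probes was 1 for 1300 kBq, 5 for 170 kBq, 5 for 340 kBq, 20 for 4700 kBq, 6 for 88 kBq, 364 for 9 kBq, 21 for dose, 41 for the irradiated groups and 90 for the order. With the rich arrays alone, the count of regulated probes was 4 for 1300 kBq, 1 for 170 kBq, 3708 for 340 kBq (all higher, resting on 340 kBq rat 4, the 1 rich array of that group, with 88.5% of probes well above background against at most 77.0% on the other arrays), 9 for 4700 kBq, 5 for 760 kBq, 11 for 9 kBq, 20 for dose, 22 for the irradiated groups and 16 for the order. With the poor arrays alone, the count of regulated probes was 2 for 1300 kBq, 9 for 170 kBq, 12 for 260 kBq, 11 for 340 kBq, 3 for 4700 kBq, 11 for 760 kBq, 27 for 88 kBq, 25 for 9 kBq, 1 for dose, 21 for the irradiated groups and 51 for the order. With quantile normalization, the count of regulated probes was 3 for 170 kBq, 4 for 260 kBq, 4 for 88 kBq, 4 for 9 kBq and 3 for dose. With the authors' value table, the count of regulated probes was 3 for 170 kBq, 4 for 260 kBq, 4 for 88 kBq, 4 for 9 kBq and 1 for dose. With the follicular list as covariate, the count of regulated probes was 2 for 170 kBq, 4 for 4700 kBq, 4 for 88 kBq, 3 for 9 kBq, 25 for the irradiated groups and 30 for the order. With an adjusted p limit of 0.05, the count of regulated probes was 3 for 170 kBq, 6 for 4700 kBq, 4 for 88 kBq, 5 for 9 kBq, 21 for the irradiated groups and 22 for the order. With normexp of the median spot signals and an offset of 50, the count of regulated probes was 3 for 4700 kBq and 2 for 88 kBq. With dim spots at the floor, the count of regulated probes was 1 for 4700 kBq. With dim probes left out, the count of regulated probes was 3 for 88 kBq and 4 for 9 kBq. With median centring, the count of regulated probes was 2 for dose. With the slide as a block, the count of regulated probes was 0 for dose and 6 for the irradiated groups. With the replicate block, the count of regulated probes was 0 for dose. With dose as log2 kBq, the count of regulated probes was 0 for dose. With a fit on group means, the count of regulated probes was 0 for the order. Leaving out each rat in turn, values ranged from 3.28 to 4.07 for *Ciart* (the order), -0.011 to 0.53 for *Nr1d1* (340 kBq), -0.009 to 0.88 for *Nr1d1* (4700 kBq), -0.081 to 0.50 for *Nr1d1* (760 kBq), -0.091 to 0.52 for *Nr1d2* (1300 kBq), -0.29 to 0.11 for *Nr1d2* (340 kBq), -0.082 to 0.40 for *Nr1d2* (4700 kBq), -0.20 to 0.15 for *Nr1d2* (760 kBq), -0.15 to 0.33 for *Per1* (170 kBq), -0.42 to 0.073 for *Per1* (260 kBq), -0.064 to 0.42 for *Per1* (340 kBq), -0.22 to 0.47 for *Per1* (4700 kBq), -0.47 to 0.005 for *Per1* (88 kBq), -0.059 to 0.42 for *Per1* (9 kBq), -0.004 to 0.32 for *Per1* (the order), -0.24 to 0.46 for *Per3* (1300 kBq) and -0.26 to 0.42 for *Per3* (4700 kBq). Counts without 1 rat ranged from 0 to 1 for 170 kBq, 0 to 3 for 340 kBq, 0 to 2 for 4700 kBq, 0 to 1 for 760 kBq, 0 to 1 for 88 kBq, 0 to 1 for 9 kBq, 0 to 8 for dose and 5 to 12 for the irradiated groups. The rat numbers do not pair the samples (median correlation of deviations -0.0259 for equal and -0.0304 for unequal numbers). Every group holds the same rat numbers, so the replicate block cannot move the size of a change, only its adjusted p. With that block *Ciart* had an adjusted p of 0.0144 in limma over the order. Without 1 rat the adjusted p ranged from 0.00177 to 0.0482 for *Ciart* and from 0.0429 to 0.375 for *Nr1d1*. Signal over background limits *Ciart*, whose probe was well above background on 12 of 36 arrays.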
